A study of Mus musculus with 50 samples.

Results

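Transplant and primary p53/MCA sarcomas were compared after 20 Gy of focal radiation given with an isotype control antibody, 3 days after treatment. The comparison rests on 12 of the 50 bulk RNA sequencing libraries of the series, 4 from transplants and 8 from primary tumors, chosen by their labels, and covers every expressed gene as transplant minus primary. Primary tumors arose in the gastrocnemius muscle of p53FL/FL mice on a 129/SvJae background, 6 to 10 weeks old when an adenovirus carrying Cre was injected to delete Trp53 together with 300 µg of the carcinogen 3-methylcholanthrene (MCA). Transplants grew in the same muscle of 129/SvJae mice from 50000 cells of line 402230, which was made from 1 untreated primary sarcoma of that kind. By their labels, all 12 tumors were treated at about 150 mm3 and received 200 µg of the isotype antibody, so none had PD-1 blockade. The other 36 tumors of the series had 0 Gy or the anti-PD-1 antibody or both, and 2 further libraries are labelled as the cell line 402230 and as its parental tumor. As a model, the transplant group is 1 line sampled in 4 mice, and the primary group is 8 tumors that arose separately. Whole tumors were sequenced, so host cells, in which Trp53 was not deleted, are part of every library. In whole tumors, fewer cells of a type and less RNA per cell cannot be told apart.

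Focal radiation breaks DNA, and cells without p53 lose much of the arrest and death response that the break normally sets off. Irradiated tumors also release signals that start interferon production, and myeloid cells and fibroblasts around them remodel the matrix through secreted proteases. A transplanted line passes through culture before it grows in the host, whereas a primary tumor develops in place with its own stroma and with the immune cells of its host.

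Total counts ran from 31810461 to 53307204 over the 12 libraries, and transplant 1 had the highest total. Levels are given as CPM, counts scaled to a common library size with TMM factors, where 1 CPM stood for 31.8 to 53.3 counts before those factors. Trp53, the gene deleted to start these tumors, was at 40.5, 43.7, 42.2 and 40.6 CPM in the 4 transplants and at 24.1 to 60.7 CPM with a median of 28.9 in the primary tumors. The groups overlapped, the log2 fold change was 0.26 ± 0.21 (SE, adjusted p = 0.55), and a count over the whole gene does not show the deleted exons. Transplant 1 stood apart from the other 3, with a Spearman correlation over genes of 0.947 to 0.970 with them against 0.979 to 0.985 among them. It also had the least skeletal muscle RNA, with Acta1, the actin of muscle fibers, at 23.2 CPM against 563 to 2774 CPM in the other 3 and 67.9 to 10166 CPM in the primary tumors. Muscle fiber RNA was thus present in every library at widely different levels. A list of 12 fiber genes summed to 107.7 to 13632 CPM in the transplants and from 330.4 to 51971 CPM in the primary tumors. Whether this RNA came from host muscle or from tumor cells was not tested.

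The sex-linked genes divided the libraries in another way. Transplants 1, 3 and 4 held both Xist, the RNA of the inactive X chromosome, at 181, 120.2 and 84.0 CPM and the Y-linked gene Ddx3y at 39.1, 31.6 and 41.2 CPM. Transplant 2 had Ddx3y at 57.9 CPM and Xist at 0.0741 CPM. Primary tumors 1 and 3 had Xist at 306 and 460.2 CPM with Ddx3y at 0.116 and 0.220 CPM, and the other 6 had Ddx3y at 48.3 to 82.1 CPM with Xist at 0.111 to 2.08 CPM. No primary library had both genes above 3 CPM, whereas 3 of 4 transplants did. With the Xist level as a covariate, a term added after the data were seen, 887 genes passed the test described next, against 942 without it.

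**Figure D1:**
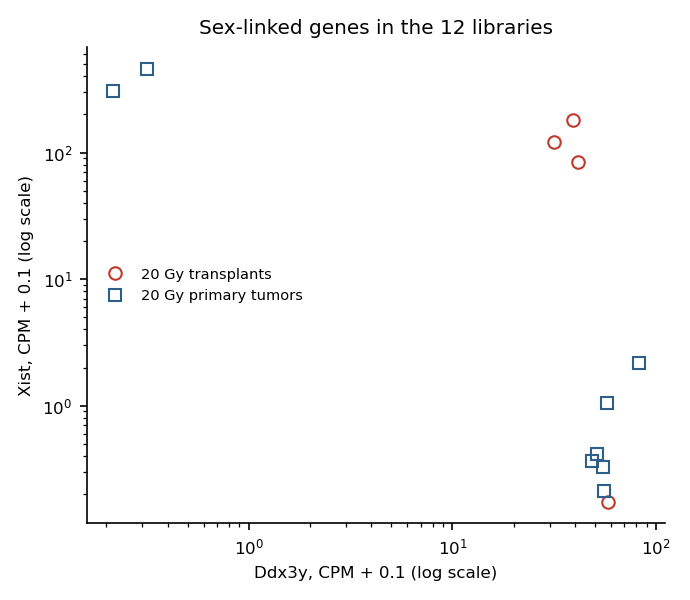
Xist against the Y-linked gene Ddx3y in each of the 12 libraries, both in CPM plus 0.1 on log axes, with 1 point a library. Transplants 1, 3 and 4 lie at the upper right with both genes, and transplant 2 and 6 primary tumors lie at the lower right with Ddx3y alone.

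Of 19327 genes tested, 942 (4.87%) passed an adjusted p of 0.05 in edgeR's quasi-likelihood test (3599 had an unadjusted p under 0.05), 478 (2.47%) higher and 464 (2.4%) lower in transplants. At least 2-fold changes made up 324 of the higher and 402 of the lower genes, the median size of a called log2 fold change was 1.73, and the median over all genes tested was -0.03. The 4 transplants lay wholly above the 8 primary tumors for 627 genes (3.24%) and wholly below them for 451 (2.33%), 1078 (5.58%) in all, which included 365 of the called higher and 273 of the called lower genes. Each transplant carried weight in the count of calls, which was 525, 532, 565 and 351 without transplants 1, 2, 3 and 4 in turn, and 787 to 954 without single primary tumors. Non-overlapping genes numbered 1912, 1376, 1399 and 1154 without transplants 1, 2, 3 and 4 in turn. Leaving out a library cannot lower this count, so its rise is by construction. A total of 253 genes, 146 of them higher, passed under each of 19 alternative settings. The balance of directions depended on the tool: DESeq2 called 1449 genes of which 36.9% were higher, limma voom 906 of which 63.8% were higher, against 50.7% in the edgeR fit.

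**Figure D2:**
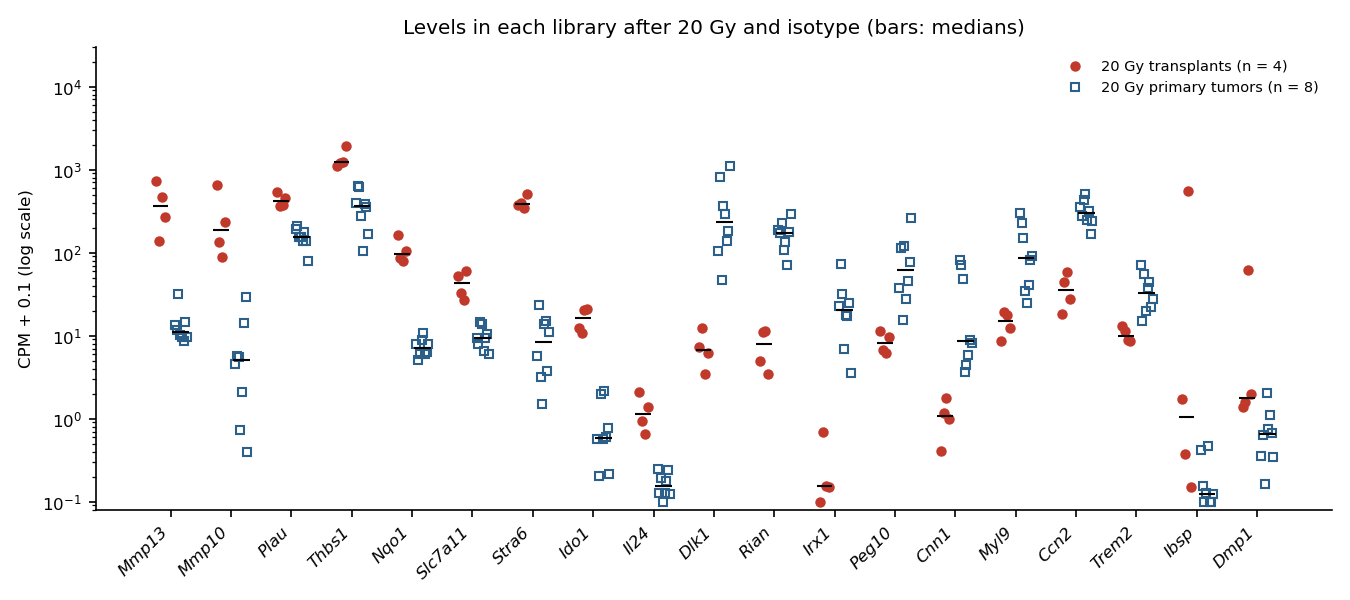
Levels of 19 genes in each 20 Gy library, as CPM plus 0.1 on a log axis, with filled circles for the 4 transplants, open squares for the 8 primary tumors and bars at the medians. Mmp13 to Il24 are higher in every transplant than in any primary tumor and Dlk1 to Trem2 lower, whereas Ibsp and Dmp1 stand high in transplant 3 alone.

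Secreted proteases held some of the highest differences. Matrix metalloproteinases cut collagens and other matrix proteins, and Mmp13 (collagenase 3) and Mmp10 (stromelysin 2) belong to a cluster of such genes on chromosome 9, within 7272514 to 7510240 from Mmp13 to Mmp10 on GRCm38. Their start sites are shown here because AP-1, the Fos and Jun transcription factor, is a textbook regulator of this cluster and of the urokinase receptor gene Plaur. Each stretch of 120 bases, from RefSeq on GRCm38.p6, lies just before the annotated start and has its AP-1 site (TGAGTCA or TGACTCA, each the reverse complement of the other) in capitals.
Mmp13 (chr9:7272394-7272513, plus strand): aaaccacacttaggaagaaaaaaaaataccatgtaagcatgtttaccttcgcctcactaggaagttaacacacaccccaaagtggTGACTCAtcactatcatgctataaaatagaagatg
Mmp10 (chr9:7502222-7502341, plus strand): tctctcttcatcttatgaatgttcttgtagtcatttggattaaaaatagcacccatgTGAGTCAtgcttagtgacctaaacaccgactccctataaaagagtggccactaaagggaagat
Plaur (chr7:24462363-24462482, plus strand): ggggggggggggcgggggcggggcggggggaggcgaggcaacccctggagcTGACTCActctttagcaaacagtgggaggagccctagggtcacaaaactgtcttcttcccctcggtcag
Within 250 bases before the start, 5 of 13 protease and inhibitor genes with a window held such a site (Mmp3, Mmp10, Mmp12, Mmp13 and Plaur). The site was found in 4.46% of 32851 windows of all genes and in 3.75% of those of genes tested. The metalloproteinases among the 5 lie in 1 cluster, and the site was chosen for that cluster and Plaur, so these shares are not a test. A match is only a description of these letters.

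Mmp13 was at 722, 139.9, 470.5 and 266 CPM in transplants 1 to 4 and at 8.47 to 31.6 CPM with a median of 10.9 in primary tumors. Every transplant was above every primary tumor, with a log2 fold change of 4.88 ± 0.58 (SE, adjusted p = 4.33e-07) that held under all 19 alternatives. Mmp10 was at 644, 136.1, 88.6 and 234 CPM in transplants against 0.295 to 29 CPM with a median of 5.01, again without overlap, with a log2 fold change of 5.15 ± 1.15 (SE, adjusted p = 0.00501). Both were highest in transplant 1. Plau, the urokinase that turns plasminogen into plasmin, stood at 537, 366, 370.4 and 459 CPM against 79.6 to 208 CPM with a median of 154 (log2 fold change 1.48 ± 0.40 SE, adjusted p = 0.023). Its receptor gene Plaur stood at 99.7, 92.7, 109.6 and 110.1 CPM against 34.4 to 76.8 CPM with a median of 41.8 (log2 fold change 1.15 ± 0.31 SE, adjusted p = 0.0214). Neither gene overlapped between the groups.

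Of 10 metalloproteinases, Mmp13 and Mmp10 were called higher (20%, against 2.47% of all genes tested). None was called lower, and the median log2 fold change was 0.70. Mmp3, between them in the cluster, ran from 224 to 1776 CPM in transplants and from 5.15 to 473 CPM in primary tumors, which overlapped (log2 fold change 2.18, adjusted p = 0.203). The neighbouring interstitial collagenase genes Mmp1a and Mmp1b, looked at after the cluster was seen, had log2 fold changes of 3.47 and 3.47, of which only the second passed (adjusted p = 0.0768 and 0.0321). The exons of Mmp1b overlap those of Mmp12, so its counts are uncertain. Mmp27, another neighbour looked at then, went the other way. It was at 0.338 to 1.02 CPM in transplants and at 0.827 to 4.09 CPM in primary tumors, which overlapped. These Mmp27 levels come from a scaling that included the library labelled as the cell line. Mmp2, Mmp9, Mmp11 and Mmp14, which sit elsewhere in the genome, had log2 fold changes of 0.82, 0.08, 0.31 and 0.31, and none passed. Of 9 genes of the plasminogen system and of protease inhibitors, Plau and Plaur were called higher in edgeR (22.2%, against 2.47% of all genes tested). DESeq2 called Serpinb2 as well (-3.95 in edgeR, adjusted p = 0.127), and the list's median was -0.64. The inhibitors Timp1, Timp2 and Timp3 had values of -0.68, -0.50 and -1.0, none past the threshold. None of 13 AP-1 and immediate early genes passed, with a median of 0.30, and Fosl1, a Fos family member, had 0.76 (95% interval -0.02 to 1.54). Without transplant 1 or 4 the call for Plau was lost, as was that for Plaur without transplant 3 or 4.

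NRF2, a transcription factor that answers oxidative and electrophilic stress, drives genes for glutathione synthesis, quinone reduction and NADPH supply. Of 15 such genes, 10 (66.7%) were higher in transplants, against 2.47% of all genes tested. None was lower, and the median log2 fold change was 0.82 against -0.03 over all genes. The list summed to 1928 to 2363 CPM in the transplants and from 1065 to 1467 CPM in the primary tumors, without overlap. Nqo1, the quinone reductase, was at 163, 86.5, 78.7 and 105.3 CPM against 4.99 to 10.6 CPM with a median of 7.04, a log2 fold change of 3.90 ± 0.58 (SE, adjusted p = 4.28e-05). Slc7a11, the cystine transporter that feeds glutathione synthesis, was at 52.4, 32.6, 26.7 and 60.7 CPM against 5.9 to 14.7 CPM with a median of 9.28 (2.16 ± 0.52 SE, adjusted p = 0.0091). Both genes had every transplant above every primary tumor.

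The other members called had smaller differences. Gclc, the catalytic subunit of the enzyme that begins glutathione synthesis, had a log2 fold change of 1.24, and thioredoxin reductase Txnrd1 had 1.17. Gsr, which restores reduced glutathione, had 0.97, and the glutathione transferase Gstm1 had 0.98. The list's 4 enzymes of the pentose phosphate pathway were called, with log2 fold changes of 0.82 for G6pdx, 0.68 for Pgd, 0.55 for Tkt and 1.04 for Taldo1. Gclm, Srxn1, Osgin1, Me1 and Hmox1 did not pass, with values of 0.73, 0.77, 0.67, 0.01 and -0.10. Nqo1, Txnrd1, G6pdx and Taldo1 passed under all 19 alternatives. Calls were lost without transplant 4 for Gclc, Slc7a11, Gsr and Gstm1, without transplant 2 for Gsr and Gstm1, and without any 1 of the 4 for Pgd and Tkt. Gstm1 was also lost without primary tumor 3, 6 or 8, Pgd without 1, 3, 4, 5 or 7, and Tkt without 3 or 7.

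The core of the antioxidant response element, TGACNNNGC on either strand, was found in 3 of 12 windows of the list, those of Gclm, G6pdx and Txnrd1. It was found in 10.2% of all windows and in 11.6% of those of genes tested. The core was chosen for this list, so these shares are not a test. The stretches of the 2 called genes are shown, again ending at the annotated start and from RefSeq on GRCm38.p6, with the match in capitals. A match of this core can overlap an AP-1 site.
Txnrd1 (chr10:82859086-82859205, plus strand): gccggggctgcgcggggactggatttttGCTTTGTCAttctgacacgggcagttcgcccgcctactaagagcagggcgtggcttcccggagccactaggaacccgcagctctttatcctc
G6pdx (chrX:74428881-74429000, minus strand): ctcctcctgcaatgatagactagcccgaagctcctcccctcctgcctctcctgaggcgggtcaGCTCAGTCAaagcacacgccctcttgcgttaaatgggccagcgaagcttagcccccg

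Imprinted genes are expressed from 1 parental copy. The Dlk1-Dio3 locus on chromosome 12 (109032187 to 110281097 from Begain to Dio3) holds the paternally expressed genes Dlk1 and Rtl1 and the maternally expressed noncoding RNAs Meg3, Rian and Mirg. Of 7 genes there, 6 (85.7%, against 2.4% of all genes tested) were lower in transplants and the median was -4.23. Rian was at 4.83, 11, 11.2 and 3.32 CPM in transplants and at 71.4 to 289 CPM with a median of 173 in primary tumors (log2 fold change -4.49 ± 0.57 SE, adjusted p = 2.74e-06). Dlk1, which encodes a membrane protein related to Notch ligands, was at 7.11, 12.3, 3.32 and 6.05 CPM against 46.9 to 1111 CPM with a median of 237 (-5.72 ± 1.29 SE, adjusted p = 0.00544). All 6 genes had every transplant below every primary tumor.

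Meg3 had a log2 fold change of -4.26 ± 0.79 (SE, adjusted p = 0.00081), Mirg one of -4.23 ± 0.59 (SE, adjusted p = 1.69e-05) and Begain one of -2.25 ± 0.53 (SE, adjusted p = 0.00756). Rtl1 was near the limit of detection, with 4 counts in all over the 4 transplants against a median of 0.313 CPM in the primary tumors, and its call was lost without any 1 of the transplants or without primary tumor 5. Dio3, at the far end of the locus, ran from 0.0779 to 7.15 CPM in transplants and from 0.239 to 7.17 CPM in primary tumors and did not pass (log2 fold change 0.69, adjusted p = 0.731). Exons of Meg3, Rian, Mirg and Rtl1 overlap those of small RNA genes.

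Among 14 imprinted genes elsewhere, edgeR called 3 (21.4%) lower, against 2.4% of all genes tested. None was called higher, and the median was -0.56. Peg10 and Sgce, paternally expressed neighbours on chromosome 6, were both lower. Peg10 was at 11.2, 6.54, 6.03 and 9.62 CPM against 15.5 to 261 CPM with a median of 61.6 (-3.39 ± 0.64 SE, adjusted p = 0.000892). Sgce, which encodes a sarcoglycan, was at 9.25, 9.34, 11.2 and 8.1 CPM against 28.7 to 64.1 CPM with a median of 40.2 (-2.22 ± 0.26 SE, adjusted p = 2.93e-07). Transplants lay below all primary tumors for both, and both calls held under all 19 alternatives. Ndn had -2.73 (adjusted p = 0.0244), lost without transplant 1, 3 or 4 and in limma voom. Peg3, Nnat and Zim1 had positive values of 2.43, 2.22 and 2.60 that did not pass in edgeR, although DESeq2 and limma voom called Peg3 and limma voom called Nnat. DESeq2 also called Cdkn1c, which ran lower in transplants, at 12.9 to 22.9 CPM against 16.0 to 189.0 CPM in primary tumors. These Cdkn1c levels come from a scaling that included the line 402230 libraries. Igf2 and H19 had -0.37 and 0.21.

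Contractile genes of smooth muscle are also made by myofibroblasts, the activated fibroblasts of wounds and tumors. Of 18 such genes, 4 (22.2%) were lower in transplants, against 2.4% of all genes tested. None was higher, and the median was -0.67. Tagln, an actin-binding protein, was at 10.8, 23.5, 30 and 14.4 CPM against 60.4 to 727 CPM with a median of 152 (-3.82 ± 0.75 SE, adjusted p = 0.00142). Myl9, the regulatory myosin light chain, was at 8.43, 19.1, 17.8 and 12.4 CPM against 24.4 to 301 CPM with a median of 85.5 (-3.04 ± 0.73 SE, adjusted p = 0.0096). Cnn1 (calponin) and Acta2 (smooth muscle actin) had log2 fold changes of -4.86 ± 1.18 (SE, adjusted p = 0.00972) and -2.49 ± 0.67 (SE, adjusted p = 0.0228). The groups did not overlap for Tagln, Myl9 and Cnn1, and overlapped for Acta2. The call for Myl9 was lost without transplant 4, as was that for Cnn1, which limma voom did not make either, and that for Acta2 without transplant 1, 2 or 4 or primary tumor 1 or 2. Myh11, Actg2, Lmod1 and Myocd, more restricted to smooth muscle itself, had values of -1.26, -1.40, -1.04 and -1.72, none past the threshold. The list summed to 1764 to 3045 CPM in the transplants and from 1605 to 6273 CPM in the primary tumors, and the part of vessel muscle in it was not tested.

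Serum response factor binds the CArG box and drives many of these genes. Within 250 bases before the start, 3 of 14 windows of the list held a CArG box on either strand (Cnn2, Myl9 and Srf). The box was found in 1.47% of all windows and in 1.22% of those of genes tested. It was chosen for this list, so these shares are not a test. The stretch of the called gene is shown, from RefSeq on GRCm38.p6, with the box in capitals.
Myl9 (chr2:156775263-156775382, plus strand): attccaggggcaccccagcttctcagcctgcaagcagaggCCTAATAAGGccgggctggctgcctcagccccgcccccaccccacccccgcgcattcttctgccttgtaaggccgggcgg
Srf, Mrtfa and Mrtfb, the factor and its actin-sensing partners, had log2 fold changes of 0.32, -0.26 and 0.15, none past the threshold.

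TGF-beta is made as a latent protein, signals through Tgfbr1 and Tgfbr2 and induces matrix and contractile genes. Of 17 genes of the pathway, 3 (17.6%) were higher and 2 (11.8%) lower, with a median of -0.03. Over all genes tested these shares were 2.47% and 2.4%. On the ligand and receptor side, Tgfb1 was at 187, 189, 169 and 216 CPM against 103.6 to 153 CPM with a median of 117.1 (0.62 ± 0.14 SE, adjusted p = 0.00538), and the groups did not overlap. Tgfbr1 was at 212, 110.9, 120.5 and 154 CPM against 54.2 to 114.8 CPM with a median of 81 (0.92 ± 0.21 SE, adjusted p = 0.00538), with transplant 2 below the highest primary tumor. The other ligands Tgfb2 and Tgfb3 had -0.33 and -0.33, and the receptors Tgfbr2 and Tgfbr3 had -0.18 and -0.85, none past the threshold and all with overlapping groups. Inhba, the activin subunit, had 1.48 ± 0.40 (SE, adjusted p = 0.0235).

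On the response side, Ccn2 (connective tissue growth factor) was at 18.1, 43.7, 58.4 and 27.2 CPM against 169 to 512 CPM with a median of 297, a log2 fold change of -3.11 ± 0.72 (SE, adjusted p = 0.00657) without overlap. Bambi, a decoy receptor, had -1.55 ± 0.34 (SE, adjusted p = 0.00397). Other response genes did not pass, with values of 0.04 for Smad7, 0.33 for Skil and 0.45 for Tgfbi. The call for Tgfbr1 was lost without transplant 1 and that for Inhba without transplant 2, 3 or 4. An exon of Ccn2 overlaps a predicted gene, Gm15270.

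Most matrix genes did not pass. Of 17 collagen genes, Col12a1 was higher (2.09 ± 0.63 SE, adjusted p = 0.041) and Col8a1 lower (-1.76 ± 0.45 SE, adjusted p = 0.0153), and the median was -0.25. Each was 5.88% of the list, against 2.47% higher and 2.4% lower of all genes tested. Col12a1 passed in 7 of 19 alternatives, and was lost without any 1 of the 4 transplants or without primary tumor 1, 2, 4, 5, 7 or 8. Col8a1 was lost without transplant 1, 2 or 4. Col1a1, the main chain of fibrillar collagen, ran from 597 to 9544 CPM in transplants, lowest in transplant 1 and highest in transplant 3, and from 1769 to 10698 CPM in primary tumors (log2 fold change -0.05, 95% interval -1.31 to 1.21).

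Of 20 glycoproteins and proteoglycans, edgeR called 1 (5%) higher and 2 (10%) lower, against 2.47% and 2.4% of all genes tested. The median was -0.55, and 9 had an unadjusted p under 0.05. DESeq2 called 7, adding Fbln2, Fn1, Mgp and Ogn, whose edgeR values were -1.52, -1.30, -2.05 and -1.96. Thbs1 (thrombospondin 1), which can activate latent TGF-beta, was at 1091, 1204, 1250 and 1916 CPM against 103.5 to 634 CPM with a median of 369.6 (1.90 ± 0.46 SE, adjusted p = 0.01). Efemp1 (fibulin 3) was at 14.1, 29.7, 28 and 17.4 CPM against 54.9 to 348 CPM with a median of 131.2 (-2.86 ± 0.57 SE, adjusted p = 0.00155). Biglycan, Bgn, had -1.12 ± 0.32 (SE, adjusted p = 0.0308). None of the 3 overlapped between the groups. Fibronectin, Fn1, did not pass in edgeR (adjusted p = 0.117). Among 10 genes of collagen crosslinking, Loxl3 (-1.67) and P4ha3 (-2.17) were lower (20%, against 2.4% of all genes tested) and the median was -0.20. Calls were lost without transplant 4 for Thbs1, Loxl3 and Bgn, without transplant 1 for Loxl3 and Bgn, and without transplant 2 or primary tumor 2 or 4 for Bgn.

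Genes ranked highest and lowest by log2 fold change included several transcription factors, which were not a list. Sox2, a factor of neural and pluripotent cells, was at 49.8, 33.4, 36.4 and 50.5 CPM against 0.047 to 2.82 CPM with a median of 0.204 (5.83 ± 1.14 SE, adjusted p = 0.00142). Irx1, an Iroquois homeobox factor, was at 0, 0.593, 0.0548 and 0.0507 CPM in transplants, 28 counts in all, and at 3.43 to 72.4 CPM with a median of 20 in primary tumors (-7.14 ± 1.74 SE, adjusted p = 0.0105). Its neighbour on chromosome 13, Irx2, had -7.01 ± 1.75 (SE, adjusted p = 0.0126), and neither gene overlapped between the groups. Of these, Sox2 passed under every alternative, Irx1 was lost without transplant 4, Irx2 without transplant 1 or 4, and both in limma voom.

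Dmrta2, another factor of the developing brain, had a log2 fold change of 4.42, and the limb and jaw factor Msx1 had 2.18, both higher. Bhlhe22, a neuronal factor, had -4.98 (lost in limma voom), and Tcfl5 had -5.93, a call lost in 12 of 19 alternatives, among them without any 1 transplant. Tcfl5 reached 48 CPM in its highest primary tumor with a median of 1.27. Of 15 Hox genes, edgeR called Hoxd8 alone (1.28, lost without transplant 4), 6.67% of the list against 2.47% of all genes tested. In limma voom Hoxd10 was called as well (1.68 in edgeR, adjusted p = 0.395), and the median was 0.13. Msx1 was lost without transplant 1, 2 or 4.

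Several secreted and transported factors separated the groups. Stra6, the membrane receptor for retinol-binding protein, was at 373, 400.3, 344 and 508 CPM against 1.41 to 23.3 CPM with a median of 8.21 (5.41 ± 1.02 SE, adjusted p = 0.000887). It was the 1 gene of 13 (7.69%) in retinoid handling that passed, against 4.87% of all genes tested, and the list's median was 0.30. Pthlh, the parathyroid hormone-related protein, was at 119.5, 73.4, 83.6 and 106.5 CPM against 0.476 to 2.86 CPM with a median of 2.53 (5.36 ± 0.60 SE, adjusted p = 1.68e-07). Nppc, a natriuretic peptide of growing cartilage, had 4.45 ± 1.06 (SE, adjusted p = 0.00854), and Cemip, which breaks down hyaluronan, had 3.83 ± 0.81 (SE, adjusted p = 0.00303). Transplants lay wholly above primary tumors for all 4, and all 4 calls held under the 19 alternatives.

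The remaining genes with the highest fold changes upward were Aox3 (4.81), an aldehyde oxidase, the scavenging chemokine receptor gene Ackr4 (3.94, lost without transplant 1 or 4, with exons shared with Acad11) and the monocarboxylate transporter Slc16a11 (3.87). Those downward were Nptx2 (-6.68), a neuronal pentraxin, the glutamate receptor gene Gria1 (-4.07, lost without transplant 1), the protocadherin Pcdh10 (-4.19), the microtubule regulator Stmn2 (-4.42), the growth factor binding protein Igfbp2 (-4.04, lost in limma voom) and AW551984 (-4.29). Stmn2 passed in 11 of 19 alternatives, was lost without any 1 transplant or primary tumor 3, and ran from 0.613 to 207 CPM in primary tumors against 1.06 to 2.41 CPM in transplants.

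The highest log2 fold change upward among the ranked genes came from 1 library. Ibsp (integrin-binding sialoprotein), a protein of mineralizing bone, was at 1.64, 0.272, 559 and 0.0507 CPM in transplants 1 to 4 and at 0 to 0.368 CPM in primary tumors, and the fitted log2 fold change was 10.48 ± 2.05 (SE, adjusted p = 0.00139). Without transplant 3 the call was lost (adjusted p = 0.48). Dmp1, a dentin and bone matrix protein, was at 1.27, 1.48, 61.7 and 1.9 CPM in transplants (4.63 ± 0.96 SE, adjusted p = 0.00225), and its call was also lost without transplant 3. These genes neighbour each other on chromosome 5, and Mepe, the next one, looked at for that reason, had 504 of its 505 transplant counts in transplant 3. Spp1 (osteopontin), the last of the row and also a macrophage product, was at 2483, 1151, 1082 and 1663 CPM against 251 to 1834 CPM with a median of 484, and did not pass (1.33, adjusted p = 0.318). Ibsp, Dmp1 and Mepe were thus high in transplant 3 alone among the 12 libraries, whereas Spp1 was lowest of the 4 transplants there. Ibsp, Dmp1 and Mepe were also not called by limma voom.

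In 20 of 38 lists edgeR made no call. Of their 220 genes, 20 had an unadjusted p under 0.05, DESeq2 called Myh3 and Myh8, and limma voom called Cd8a and Fpr1. Interferon-stimulated genes were among these lists. None of the 22 passed in edgeR, none had an unadjusted p under 0.05, none had non-overlapping groups, and their median was -0.05, with single genes between -0.53 and 0.24. Isg15 was at 788, 328, 256 and 327 CPM in transplants and 173 to 842 CPM with a median of 464 in primary tumors, with transplant 1 highest among the 4. Its log2 fold change was -0.20 with a 95% interval of -1.39 to 0.99, and that of Ifit1 was -0.33 (-1.40 to 0.74).

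Of 16 genes that answer interferon-gamma, 1 (6.25%) passed, against 4.87% of all genes tested, and the median was 0.57. Ido1, which degrades tryptophan, was at 12.3, 10.7, 20.3 and 20.9 CPM against 0.106 to 2.08 CPM with a median of 0.485 (4.35 ± 0.74 SE, adjusted p = 0.000266), without overlap. The chemokines Cxcl9 and Cxcl10 had 0.57 (-0.73 to 1.87) and 0.64 (-0.46 to 1.73), and Irf1 had 0.64, none past the threshold. Their levels were high in both models, with Cxcl9 at 580.4 to 1187 CPM in transplants and 212 to 1592 CPM in primary tumors.

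Antigen presentation and lymphocyte genes had no call in any of 7 lists. All 14 MHC class I genes had values above 0, with a median of 0.36, and 9 of 10 MHC class II genes did, with a median of 0.85. The class I list summed to 12284 to 14379 CPM in the transplants and from 7239 to 14143 CPM in the primary tumors. The class II list summed to 8679 to 12485 CPM in the transplants and from 1141 to 11373 CPM in the primary tumors. Cd74 and H2-Ab1 had 1.31 (adjusted p = 0.218) and 1.22 (adjusted p = 0.288), and 7 of 8 primary tumors lay below every transplant for both.

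T cell receptor complex genes summed to 100.8 to 209 CPM in the transplants and from 23.1 to 239 CPM in the primary tumors, and the median of the 16 was 0.46. Cd8a, the coreceptor of cytotoxic T cells, was at 13.3, 15.8, 26.3 and 22 CPM against 0.885 to 12.3 CPM with a median of 4.84. Every transplant was above every primary tumor, yet the log2 fold change of 1.86 ± 0.70 (SE, adjusted p = 0.119) did not pass. Among the 19 alternatives it passed in limma voom alone. Cd4 had -0.59, the regulatory T cell factor Foxp3 -0.91, Pdcd1 (PD-1) 0.90 and its ligand Cd274 0.60 (-0.29 to 1.49). The medians were 0.60 for 9 checkpoint genes, 0.36 for 14 NK and cytotoxic genes, -0.45 for 6 regulatory T cell genes and -0.49 for 8 B and plasma cell genes.

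**Figure D3:**
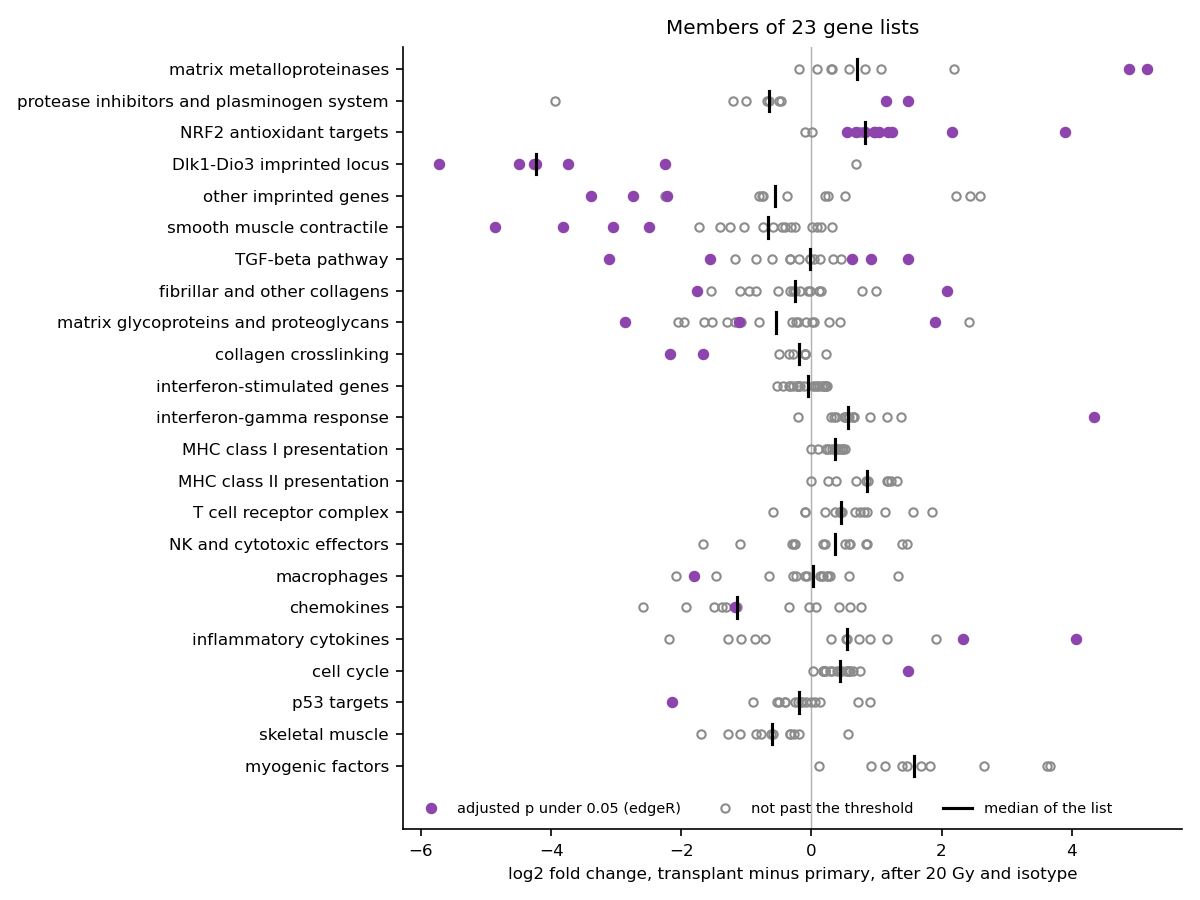
Log2 fold changes (transplant minus primary, 20 Gy and isotype) of the members of 23 gene lists, with filled points for an adjusted p under 0.05 in edgeR, open points for the rest and a bar at each list's median. NRF2 targets sit on the right and the Dlk1-Dio3 locus on the left, whereas the interferon-stimulated and MHC class I genes have only open points.

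Among 16 macrophage genes, 1 (6.25%) passed in edgeR, against 4.87% of all genes tested. Trem2, a lipid-sensing receptor of tumor macrophages, was at 13.1, 11.2, 8.66 and 8.61 CPM against 14.7 to 71.3 CPM with a median of 32.3 (-1.81 ± 0.44 SE, adjusted p = 0.0107), without overlap, and lost the call without transplant 4. General macrophage genes had values near 0, with -0.07 for Cd68, 0.13 for Adgre1 and 0.23 for C1qa, and the list summed to 5965 to 10257 CPM in the transplants and from 4075 to 9507 CPM in the primary tumors. Mrc1 and Arg1, linked to an alternative activation state, had -1.47 (adjusted p = 0.0725) and -2.08 (adjusted p = 0.182). Mrc1, at 38.9 to 82 CPM in transplants, lay below every primary tumor (112.2 to 202 CPM) and was called by DESeq2. No gene passed among 10 neutrophil genes (median 0.14) or 10 dendritic cell genes (median -0.12). Klra17, a receptor of the Ly49 family whose near-identical members can share reads, had 2.56, a call held in 10 of 19 alternatives and lost without transplant 2, 3 or 4 or primary tumor 2, 4, 7 or 8.

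Of 14 inflammatory cytokine genes, edgeR called 2 (14.3%) higher, against 2.47% of all genes tested, and the median was 0.54. DESeq2 and limma voom called Il11 as well, at 15.5 to 33.3 CPM in transplants and 2.89 to 10.9 CPM in primary tumors. DESeq2 also called Il33, which ran lower in transplants, at 12.3 to 40.2 CPM against 17.9 to 420.7 CPM. These Il11 and Il33 levels come from a scaling that included the line 402230 libraries. Ptgs2 (COX-2), the inducible enzyme of prostaglandin synthesis, was at 261, 181, 339 and 249 CPM against 13.2 to 110.3 CPM with a median of 50.3 (2.33 ± 0.60 SE, adjusted p = 0.0164), and lost the call without transplant 3. Il24 was low in both, with 207 counts over the transplants and 21 over the primary tumors, and had 4.07 ± 0.70 (SE, adjusted p = 0.000304). Groups did not overlap for either. Il6 and Il1b had -0.86 and 0.90. Of 13 chemokine genes 1 (7.69%) was lower, against 2.4% of all genes tested. This was Cxcl12, the stromal ligand of Cxcr4, with -1.18 (adjusted p = 0.0418) and overlapping groups, a call held in 6 of 19 alternatives. It was lost in limma voom, without any 1 of the 4 transplants and without primary tumor 1, 2, 3, 4, 6 or 7. The list's median was -1.14, with the neutrophil attractants Cxcl1, Cxcl2, Cxcl3 and Cxcl5 at -1.31, -1.93, -2.58 and -1.38, none past the threshold.

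Of 16 genes that p53 drives after DNA damage, 12 had values below 0, between -2.15 and 0.91 in all. Of these Gdf15, a stress cytokine, passed, at 1.64, 1.7, 1.7 and 1.7 CPM against 5.18 to 10.7 CPM with a median of 7.4 (-2.15 ± 0.50 SE, adjusted p = 0.00707) without overlap. Cdkn1a (p21) was at 197, 205, 219 and 166 CPM in transplants and at 176 to 276 CPM with a median of 209 in primary tumors, with a log2 fold change of -0.15 (-0.70 to 0.41), and Mdm2 had -0.16 (-0.44 to 0.12). The list's median was -0.18, and its 1 lower call was 6.25% of the list against 2.4% of all genes tested. All 21 cell cycle genes had values above 0, with a median of 0.44. The list summed to 1574 to 1781 CPM in the transplants and from 653.4 to 2138 CPM in the primary tumors, with primary tumor 8 above every transplant. Only Rrm2 (4.76% of the list, against 2.47% of all genes tested), a subunit of ribonucleotide reductase, passed. It was at 150.1, 136.8, 123.1 and 132.1 CPM against 32.4 to 56.9 CPM with a median of 51.3 (1.48 ± 0.22 SE, adjusted p = 4.54e-05), above every primary tumor.

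No gene passed in the lists of skeletal muscle fibers (median -0.60), myogenic factors (1.58), hypoxia (-0.12), cholesterol synthesis (-0.16), endothelium (0.35), nerve glia (-0.42), adipose tissue (-0.52) and red blood cells. Among the myogenic genes, the embryonic and perinatal myosins Myh3 and Myh8 had 3.63 and 3.66 (adjusted p = 0.075 and 0.0782), with transplant 1 below 1 CPM for both. With the mean level of the fiber genes as a covariate, 1104 genes passed in place of 942.

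The same comparison among tumors given 0 Gy and isotype uses 12 other libraries, although the shared fit pools the spread. There 1988 genes (10.3%) passed, 750 (3.88%) higher and 1238 (6.41%) lower. Of the 942 genes called after 20 Gy, 891 (94.6%) had the same sign at 0 Gy, and the genes called with that sign at both doses were 52.5% of the 20 Gy calls and 24.9% of the 0 Gy calls. A further 446 were not called at 0 Gy, 301 of them higher after 20 Gy, and 1, Swap70, was called with the opposite sign. Nqo1 had 4.07 at 0 Gy, Stra6 4.24, Dlk1 -5.82, Rian -4.66, Tagln -3.46 and Peg10 -2.68, all called there. Median values by list were -3.89 for the Dlk1-Dio3 locus, 0.64 for NRF2 targets and -0.42 for the contractile list.

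**Figure D4:**
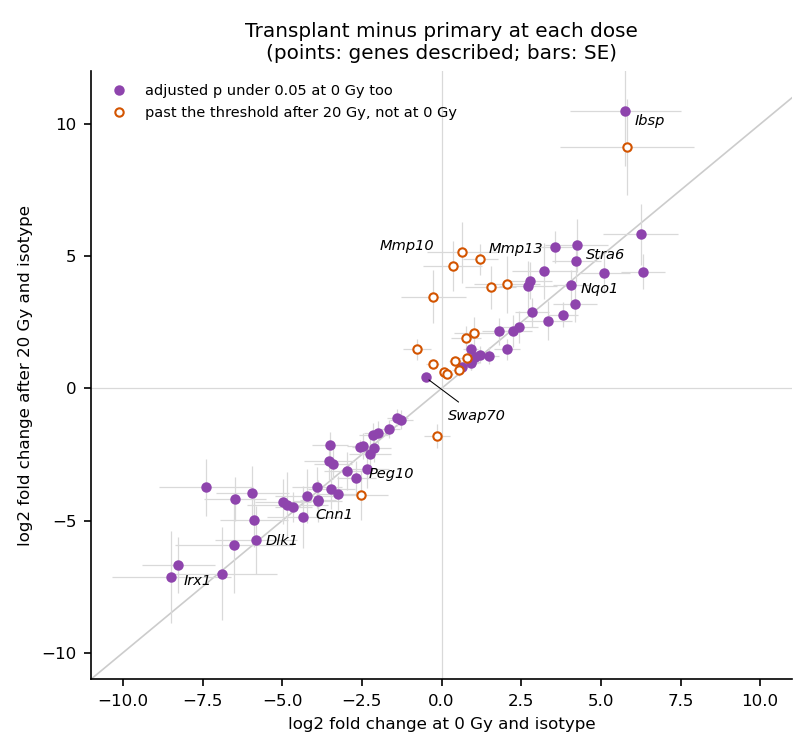
Log2 fold change of transplant minus primary after 20 Gy (vertical) against the same at 0 Gy (horizontal), isotype groups, for 79 described genes past the threshold after 20 Gy, with bars of 1 SE and a line of equal values. Filled points (61 genes) also passed at 0 Gy. Some of the genes shown were chosen for passing in every treatment, 0 Gy included. Their share is thus raised by that choice, and of all 20 Gy calls 52.5% passed at 0 Gy with the same sign. Mmp10 and Mmp13 are among the open points well above the line, but neither passed the test of a difference between the doses.

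A test of the difference between the doses, the interaction of dose and model, called 1 gene of 19327 (0.00517%) in edgeR, with 1908 at an unadjusted p under 0.05. The gene, Swap70, which encodes an actin-binding signalling protein of lymphoid and mast cells, was at 95.7 to 122.05 CPM in transplants and 69.8 to 90.8 CPM in primary tumors after 20 Gy, and at 56.9 to 77.3 and 84.8 to 116.4 CPM at 0 Gy. Transplants were thus above primary tumors after 20 Gy (0.41 ± 0.12 SE, adjusted p = 0.0276) and below them at 0 Gy (-0.50 ± 0.12 SE, adjusted p = 0.00507), and the interaction was 0.92 ± 0.17 (SE, adjusted p = 0.0398). The count of calls was 0 without any 1 of transplants 1, 2 and 4 after 20 Gy or any 1 of the 4 transplants at 0 Gy, and 2 without transplant 3. An exon of Swap70 overlaps a predicted gene, Gm45515.

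No other gene passed, and the values of some described genes at the 2 doses are given here. Mmp13 was at 16.9 to 44.6 CPM in transplants at 0 Gy and 3.16 to 31.3 CPM in primary tumors. Its log2 fold change was 1.22 there against 4.88 after 20 Gy, and its interaction had an unadjusted edgeR p of 7.60e-05 (adjusted p = 0.285). Plau had -0.78 at 0 Gy and 1.48 after 20 Gy (interaction 2.26, adjusted p = 0.397). Tgfbr1 had -0.28 and 0.92 (interaction 1.21, adjusted p = 0.397). Arg1 had 3.4 at 0 Gy and -2.08 after 20 Gy (interaction -5.48, adjusted p = 0.285). At 0 Gy, 8 of 16 interferon-gamma response genes were called, all higher in transplants, against 3.88% of all genes tested called higher there. After 20 Gy, 1 (6.25%) was called higher, against 2.47% of all genes tested. The list's median was 1.37 at 0 Gy and 0.57 after 20 Gy, and none of the 16 passed the interaction. Cxcl9 had 2.75 at 0 Gy (interaction -2.18, adjusted p = 0.486) and Cd274 1.76 (interaction -1.16, adjusted p = 0.545).

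**Figure D5:**
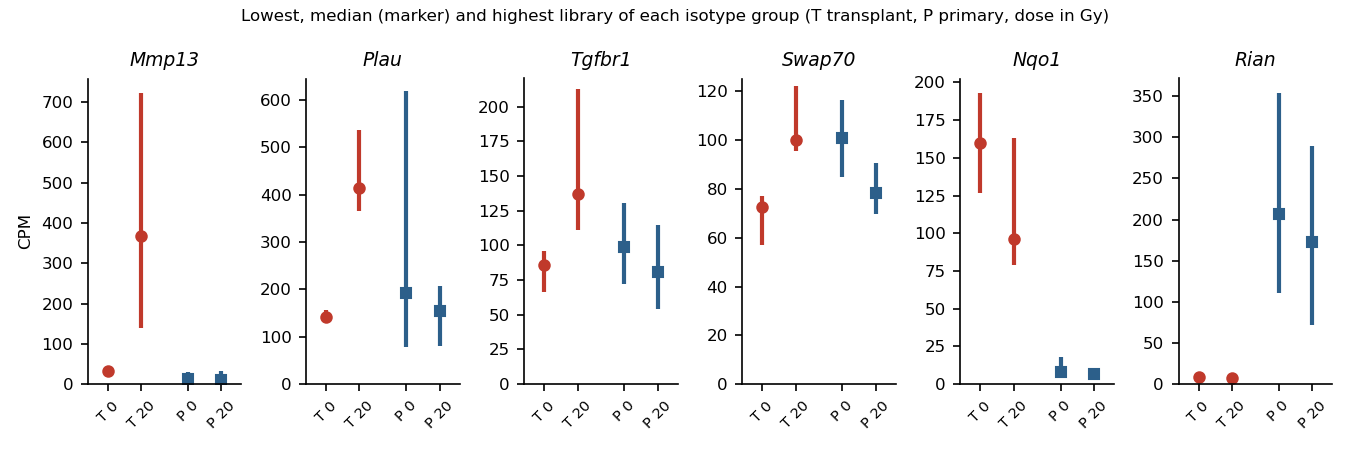
Lowest, median and highest library, in CPM from 0, of 6 genes in the 4 isotype groups, with circles for transplants (T), squares for primary tumors (P) and the dose in Gy. Mmp13, Plau, Tgfbr1 and Swap70 are higher in transplants at 20 than at 0 Gy, whereas Nqo1 and Rian differ between the models at both doses.

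Under anti-PD-1 the comparison uses further libraries. With 0 Gy and anti-PD-1, 1421 genes (7.35%) passed, 656 (3.39%) higher and 765 (3.96%) lower, and 913 of the 942 genes (96.9%) had the same sign there. After 20 Gy and anti-PD-1, 1307 genes (6.76%) passed, 588 (3.04%) higher and 719 (3.72%) lower, and 904 (96.0%) had the same sign. A set of 237 genes, 25.2% of the 942, with 57 higher and 180 lower, passed with 1 sign under all 4 treatments, whereas 313 passed after 20 Gy and isotype and in none of the other 3. The 237 became 152, 170, 178 and 140 without transplants 1 to 4 of the 20 Gy isotype group in turn and 403 with DESeq2. Higher genes made up 24.1% of the set in edgeR and 50.5% of the 210 genes of limma voom.

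The genes of that set with the highest fold change in their weakest treatment were, upward, Sox2, Dmrta2, Ido1, Pthlh, Kcnk12, Klra17, Msx1, Acot1, Flvcr2 and Ibsp. Sox2 had 5.83, 6.25, 3.94 and 4.34 after 20 Gy and isotype, at 0 Gy and isotype, at 0 Gy and anti-PD-1 and after 20 Gy and anti-PD-1. In the same order, Dmrta2 had 4.42, 6.32, 6.81 and 4.09, and Pthlh had 5.36, 3.55, 3.90 and 2.61. Kcnk12, a potassium channel gene, Acot1, an acyl-CoA thioesterase, and Flvcr2, a choline transporter, had 3.19, 2.78 and 2.88 after 20 Gy and isotype. Downward they were Dlk1, Irx1, Nptx2, Tcfl5, Bhlhe22, Pcdh10, Gria1, Negr1, Slc7a3 and Cyp7b1. Nptx2 had -6.68, -8.26, -8.14 and -5.99 in the order above. The cell adhesion gene Negr1, the amino acid transporter Slc7a3 and the oxysterol hydroxylase Cyp7b1 had -3.96, -3.73 and -4.0 after 20 Gy and isotype, and Negr1 lost that call without transplant 1 or 4. As given above, the 20 Gy isotype call for Ibsp was lost without transplant 3. Those for Klra17, Msx1, Irx1, Tcfl5, Bhlhe22 and Gria1 were also lost in some alternatives.

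The spread within each model was compared as the distance of a library to its group mean over all genes tested in log2 CPM, corrected for group size. It averaged 86.4 ± 24.3 (SD, n = 4) in transplants and 104.004 ± 15.5 (SD, n = 8) in primary tumors, a difference of -17.6 (exact two-sided permutation test, p = 0.152, where the smallest possible was 0.00202). Transplant 1 lay farthest from its group at 117.9 and transplant 4 nearest at 61.2, and primary tumors ran from 83.9 to 131.7. The difference was -34.1, -11.4, -18.0 and -6.08 without transplants 1, 2, 3 and 4 in turn (exact permutation p = 0.00606, 0.364, 0.182 and 0.624). The first of these p-values is the smallest that the permutation test can give with 1 transplant left out. Leaving out transplant 1, the library farthest from its group mean, lowers that group's distances by construction. Over the 500 most variable genes the difference was -3.26 (exact permutation p = 0.691).

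The libraries labelled as line 402230 and as its parental tumor have no replicate and were scaled with the other 48. The library labelled as the cell line held the macrophage gene C1qa at 254 CPM and the vessel gene Pecam1 at 104.4 CPM, whereas the library labelled as the parental tumor had 0.0670 and 0.112 CPM, so the levels go against both labels. Nqo1 was at 229 and 274 CPM in the libraries labelled cell line and parental tumor, Sox2 at 32.4 and 21.7 CPM, and Irx1 at 0.694 and 0 CPM. Mmp13 was at 12.3 and 4.07 CPM and Ido1 at 0.867 and 0.514 CPM. Rian was at 79.9 CPM in the first and 3.02 CPM in the second.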

How the data were processed

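Whole tumors were profiled by bulk RNA sequencing. Per the study's methods and the labels, libraries were made by the authors from poly(A) RNA. Trimming used Trimmomatic 0.36, and STAR placed the trimmed reads on mm10 and counted them over the genes of GENCODE M17. The deposited values are raw read counts per gene, not normalized and not pooled. The strand setting of the counting is not given in the sources used here, so overlapping and antisense genes are uncertain.

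Of 37469 identifiers, 37408 matched a symbol in GENCODE M21 (GRCm38). The test was that of edgeR 4.0.16 (R 4.3.3), with filterByExpr by group (19327 genes), TMM factors and 1 robust quasi-likelihood fit to the 48 tumors in 8 groups without covariates, with p-values two-sided and adjusted by Benjamini-Hochberg over all genes tested. Standard errors came from the fit, and 95% intervals use its degrees of freedom. On simulated counts for this comparison, 42% of genes changed by a log2 value of 1 and 81% of those changed by 2 were recovered, with 2 false among 125 calls. This was a single draw from the fitted spread, with 100 genes changed at each size and group means otherwise equal. Genes at the lowest levels were left unchanged, so these shares hold for that setting alone. Alternatives used DESeq2 1.42.0, limma 3.58.1 (voom), RLE factors, no filter, fewer libraries, covariates and single libraries left out. Every pair of libraries within these groups differed beyond counting noise (lowest chi-square per degree of freedom 86.5).

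Groups come from the labels. Replicate numbers follow accession order and pair nothing. The labels give each library its own mouse number, and p-values measure the spread between these libraries. Members and lists were chosen with earlier results of these data known. Genes named are those of 38 lists, the 15 highest and 15 lowest by log2 fold change of the called genes with an average log2 CPM of at least 2, up to 8 each way in the interaction, up to 10 each way among genes called in all 4 treatments, and Trp53. Genes with Gm or Rik names were left out of the rankings. Mepe and Mmp1a, Mmp1b and their neighbours were added after values were seen. Promoter windows are RefSeq's, on GRCm38.p6.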

Additional observations from a re-analysis of the deposited data

Results flagged for a closer look

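Over 166 groups of values tested for a single library far from the rest (Dixon's test, which chance meets in about 1 in 20 groups), 16 stood out. Transplant 3 was highest for Dmp1 (61.7 CPM), Mepe (13.8 CPM) and Bambi (10.8 CPM). Transplant 4 was highest for Gclc (92.5 CPM). Transplant 1 had the highest total count (53307204) and the lowest Gdf15 (1.64 CPM), the latter against 1.70 CPM in each of the other 3. Primary tumor 8 was lowest in its group for Plau (79.6 CPM), Pthlh (0.476 CPM), Cemip (0.839 CPM), Cyp7b1 (1.95 CPM) and Bhlhe22 (0.159 CPM), and highest for Gclc (58.7 CPM) and Gsr (83.7 CPM). Primary tumor 3 was highest for Mmp13 (31.6 CPM), primary tumor 7 for Msx1 (7.08 CPM) and primary tumor 1 for Mepe (0.0289 CPM, 1 count). Swap70 stood out because its difference between models differed between the doses, with an edgeR interaction of 0.92 on the log2 scale.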

How the results depend on the processing

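DESeq2 called 1449 genes in place of 942, and leaving out 1 library gave 351 to 954. The other alternatives gave 635 to 1104. Of 80 described genes, 1517 values under alternatives were compared: 1353 kept their side of the threshold and 164 no longer passed, most often without transplant 4 (32) and transplant 1 (21), and none changed sign. Calls shared by all 4 treatments were 25.2% of the 20 Gy isotype calls (237 of 942). They were 27.8% with DESeq2 (403 of 1449), 22.7% of 635 calls without a filter on low counts, 18.2% at an adjusted p under 0.01 (60 of 330) and 29.0% to 39.9% without 1 transplant, where their number lay between 140 and 178. Their number fell by over 1.5 times without the filter, at the stricter threshold and without transplant 1 or 4, and rose by as much with DESeq2. The interaction gave 4 calls with DESeq2 and, in edgeR, 0 with the 24 isotype libraries alone (1901 at an unadjusted p under 0.05), RLE factors (1888), no filter (2898) or the muscle covariate (2262), and 0 to 2 without 1 transplant. The difference in spread ran from -34.1 to -6.08 without 1 transplant, and non-overlapping genes from 1154 to 1912. The latter count cannot fall when a library is left out. The cause of these shifts was not tested, beyond that leaving out a library leaves fewer samples. No paired analysis was possible because the labels carry no replicate numbers shared between groups. Depth was 31810461 counts or more, and the 4 transplants limit what could be called, so a missing call does not show that levels were alike.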
